A study of Canis lupus familiaris with 28 samples.

Results

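The genes examined here encode the tankyrases and the beta-catenin destruction complex: TNKS, TNKS2, AXIN1, AXIN2, APC, CTNNB1, GSK3B and CSNK1A1. They were found on the array by an exact match of the gene name, with all probes of each gene kept. This gave 20 probes for 7 of the 8 genes, out of 43603 probes and 32066 gene names in all, and no probe named AXIN2 was used. All 20 probes passed the filter on signal, which kept 30202 probes. TNKS2 was chosen by a measured value, the difference of its probe A_11_P063076 between dogs with atopic dermatitis (AD) and healthy dogs in these same arrays. That contrast is therefore described for TNKS2 with no test, and the questions are how far its probes disagree and whether the other genes, called partners below, show a like difference.

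Blood RNA of 28 dogs, 20 with AD and 8 healthy, was measured on Agilent canine arrays with a pair of dyes, and each dog had its own array. The dogs were privately owned animals of various breeds and both sexes, the AD dogs having been diagnosed by clinical criteria with positive allergy tests, and the labels give no ages and no treatment. On each array the dog's RNA carried Cy5 and a common reference, pooled RNA of other healthy dogs, carried Cy3. The labels name whole blood as the source, while the study's methods speak of nuclear cells of peripheral blood. The value given for a probe is the log2 ratio of the dog to the common reference, centered on the median of the array. AD minus healthy is the mean of this log2 ratio in AD dogs minus that in healthy dogs, so a value below 0 is lower in AD dogs.

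No slide and no scan day held both groups, the healthy arrays being those of slides 2 and 3 and of scan day 2, so batch and disease cannot be told apart in any difference below. In the channel of the dog, healthy arrays had 84.3% to 90.3% of their probes well above background, and AD arrays 51.7% to 87.5%. The 6 AD arrays of scan day 5 had 51.7% to 63.2%. Precision is limited by the number of arrays.

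Tankyrases are enzymes that attach chains of ADP-ribose to target proteins. Among their targets are the axins, the scaffolds of the destruction complex, and axins so marked are passed on by the ubiquitin ligase RNF146 to the proteasome. In the complex, axin and APC hold beta-catenin (CTNNB1) while casein kinase 1 alpha (CSNK1A1) and glycogen synthase kinase 3 beta (GSK3B) phosphorylate it, which marks it for degradation. When a Wnt ligand binds its receptors, the complex is held back, beta-catenin accumulates and TCF and LEF factors switch on Wnt target genes. In blood, this pathway is known for its part in the development of T cells and of blood stem cells. Much of this control acts on protein, and the arrays measured RNA.

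The TNKS2 probes are shown first, since how far they disagree was the first question. The value of A_11_P063076 chose the gene, so some disagreement with its other probes follows from that choice. All 4 lie on chromosome 28 of the canFam3 build, between positions 6344615 and 6354414. Probe A_11_P063076 covers chr28:6344615-6344674 and starts at position 2962 of the transcript ENSCAFT00000011703. The other 3 are assigned to the transcript ENSCAFT00000049890 and lie further along the gene. They start at its position 5942 (A_11_P194243, chr28:6353580-6353639), 6539 (A_11_P186838, chr28:6354177-6354236) and 6717 (A_11_P137661, chr28:6354355-6354414). The files do not say which bases are coding. No pair of the 4 shares a run of more than 7 bases, so they are separate measurements of the gene. In the lines here the first is printed whole and the others by their first 30 bases, 5′ to 3′ and with no capitals, since no motif in them is discussed.
TNKS2 A_11_P063076: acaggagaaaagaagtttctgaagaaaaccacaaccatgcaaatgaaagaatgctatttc
TNKS2 A_11_P194243: ggctcttttcagtaacttgtacataaagtg
TNKS2 A_11_P186838: gtgaatagtactattatatccatcttgggt
TNKS2 A_11_P137661: gcaggaaaacaatgtagttctgagtctaac

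The probe by which TNKS2 was chosen, A_11_P063076, had a log2 ratio of -0.46 ± 0.31 (SD, n = 20) in AD dogs, against 0.02 ± 0.11 (SD, n = 8) in healthy ones. In AD dogs the lowest log2 ratio was -1.12, the median -0.44 and the highest -0.02. In healthy dogs the lowest was -0.18, the median 0.02 and the highest 0.18. Each of the 20 AD dogs lay under the healthy mean, and 16 were below the lowest healthy dog. AD dogs 5, 11, 17 and 18 lay within the healthy range. The lowest log2 ratios were those of AD dogs 15 (-1.12), 14 (-1.04) and 2 (-0.82), of which dogs 15 and 14 were on arrays with 58.2% and 60.2% of probes well above background. AD minus healthy was -0.48 (standard error 0.121), a fold of 0.718 for AD over healthy, and it was -0.26 after normexp background correction and loess. Blood holds many cell types, and fewer cells of a type and less RNA in each cell cannot be told apart in such samples.

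The values of this probe by slide are a description only. They come from the arrays and the contrast that chose the gene, so they give no separate support for the difference. The mean log2 ratio was between -0.63 and -0.25 on the 6 slides of AD dogs, and it was 0.02 and 0.03 on the healthy slides. With any single slide left out, AD minus healthy stayed between -0.51 and -0.44. In processed signal, the dogs' own RNA had a median of 468 in the AD group and 653 in the healthy group. The common reference had a median of 619 on AD arrays and 606 on healthy arrays.

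The other TNKS2 probes had smaller differences, each with a larger standard error than that of A_11_P063076. The brightest probe of a gene is that of the highest signal averaged over arrays and channels, here A_11_P186838. It had a log2 ratio of -0.05 ± 0.47 (SD, n = 20) in AD dogs, against 0.01 ± 0.25 (SD, n = 8) in healthy ones. Its log2 ratio ran from -0.92 through a median of -0.07 to 0.74 in AD dogs, and from -0.40 through -0.05 to 0.30 in healthy dogs. AD dogs lay on both sides of the healthy dogs, with 4 below the lowest healthy dog and 10 within the healthy range, and AD minus healthy was -0.05 (standard error 0.173).

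Probe A_11_P194243 had a log2 ratio of -0.23 ± 0.49 (SD, n = 20) in AD dogs, against -0.03 ± 0.49 (SD, n = 8) in healthy ones. It ran from -1.15 to 0.74 in AD dogs and from -0.75 to 0.62 in healthy dogs, and 16 of the 20 AD dogs were within the healthy range. AD minus healthy was -0.20 (standard error 0.198), and it went from -0.42 without slide 3 to 0.03 without slide 2, so it turned with the healthy dogs included. Probe A_11_P137661 stood well above background for the dog's RNA on 24 of 28 arrays and had an AD minus healthy of -0.06 (standard error 0.192). Its log2 ratio ran from -1.49 to 1.02 in AD dogs, the widest range of the 4 probes, and both ends were on scan day 5. Both of these probes were dim. The median signal of the dogs' RNA was 133 (AD) and 131 (healthy) on A_11_P194243. On A_11_P137661 it was 93.8 and 119, where the limit of the filter was 100.

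**Figure D1:**
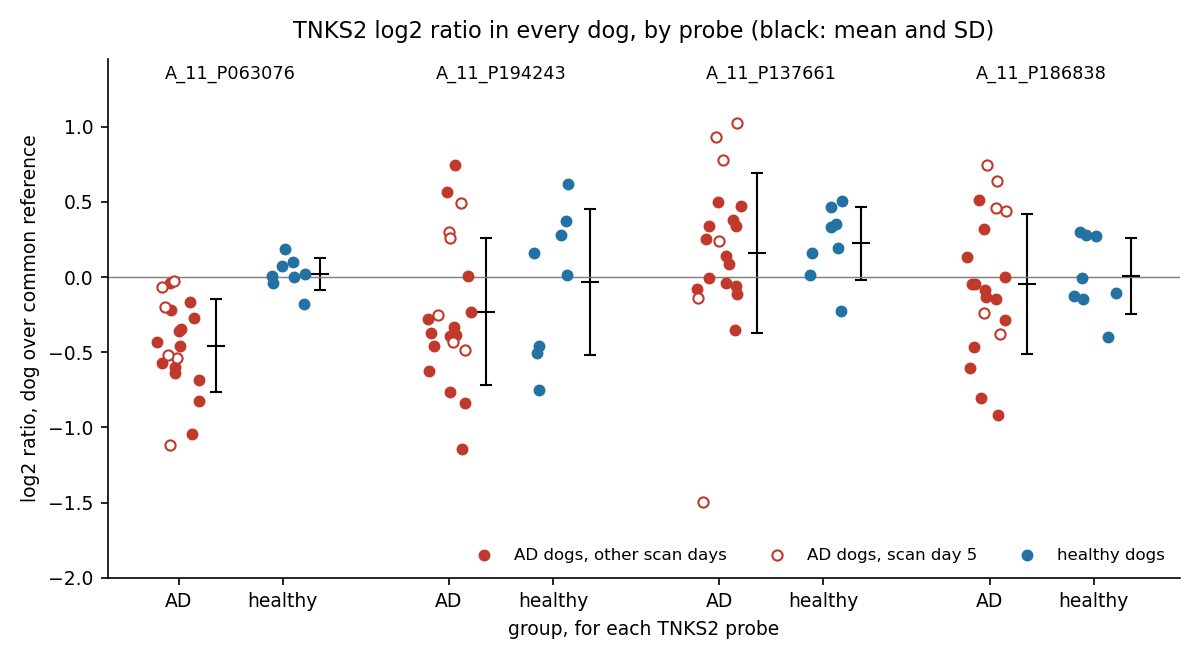
The log2 ratio of dog over common reference (vertical axis) is plotted for every dog and each of the 4 TNKS2 probes, AD dogs in red (open circles for scan day 5) and healthy dogs in blue, with the mean and SD in black; points are spread sideways only to be seen. On A_11_P063076 all AD dogs lie below the healthy mean of 0.02, and on the other 3 probes AD dogs lie on both sides of the healthy mean.

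AD minus healthy thus differed by 0.423 log2 units between the TNKS2 probes. This range is set by A_11_P063076, the value that chose the gene, so it is wide by that choice and is not compared with other genes. The mean of the 4 probes had an AD minus healthy of -0.20, with 14 of 20 AD dogs under the healthy mean.

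Within the AD dogs, which does not use the contrast that chose TNKS2, its probes were positively related from dog to dog. Pearson's r was above 0 for all 6 pairs of TNKS2 probes over 20 AD dogs, with a median of 0.513. Over all 9111 pairs of probes of the same gene the median r was 0.521. The 36 correlations of TNKS2 in both groups of dogs were adjusted together by Benjamini-Hochberg.

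Among the TNKS2 pairs, 2 had an adjusted p of at most 0.05 in AD dogs. Probes A_11_P186838 and A_11_P194243 had r = 0.609 (permutation test, two-sided, p = 0.00445, adjusted p = 0.032) and rho = 0.423 by Spearman (permutation test, p = 0.0637, adjusted p = 0.164). When the 2 dogs farthest from the median were left out, r was 0.624, and with the mean of each slide removed it was 0.531, with permutation adjusted p-values of 0.0662 and 0.0806, so the call did not hold under either. Probes A_11_P063076 and A_11_P137661 had r = 0.617 (permutation test, two-sided, p = 0.00356, adjusted p = 0.032) and rho = 0.493 (permutation test, p = 0.029, adjusted p = 0.0949). For the latter pair r was 0.607 without the 2 farthest dogs and 0.714 with slide means removed, but -0.008 without scan day 5, so the relation rested on the 6 AD dogs of that day. It was 0.242 after normexp and loess and 0.225 with the dog's channel alone. Between the probe of the largest difference, A_11_P063076, and the brightest, A_11_P186838, r was 0.529 (permutation test, two-sided, p = 0.0167, adjusted p = 0.0879) with rho = 0.621 (permutation test, p = 0.00466, adjusted p = 0.0419). After normexp and loess this r was 0.671 and passed (permutation adjusted p = 0.0216). Many other probes were as closely related. In AD dogs, 14.9% of all tested probes had a higher r with A_11_P186838 than A_11_P194243 did. For A_11_P063076 with A_11_P186838 this share was 19.3%. With A_11_P063076, 7.43% had a higher r than A_11_P137661 did.

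In the 8 healthy dogs none of the 6 pairs had an adjusted p of at most 0.05, and 3 had an r above 0. The highest was again A_11_P186838 with A_11_P194243, at r = 0.801 (exact permutation test, two-sided, p = 0.0211, adjusted p = 0.0879) and rho = 0.786 (exact permutation test, p = 0.0279, adjusted p = 0.0949), and r was 0.762 without the 2 farthest dogs. The pair A_11_P063076 and A_11_P186838 had r = 0.036 (exact permutation test, two-sided, p = 0.941, adjusted p = 0.941) and rho = -0.048 (exact permutation test, p = 0.935, adjusted p = 0.935). Without the 2 farthest dogs r was -0.023. Whether AD and healthy dogs differ in these correlations was not tested.

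The partners were compared between AD and healthy dogs with limma, and p-values were adjusted by Benjamini-Hochberg over all 30202 probes. At an adjusted p of at most 0.085, the level the study used, 0 of the 16 partner probes passed, and over all probes 0% passed. The study itself reported differing transcripts at this level, TNKS2 among them, after a filter that kept fewer transcripts. Why the calls differ was not tested. At an unadjusted p under 0.05, 3 of 16 (18.8%) were found, against 6.12% of all probes. Of these 3, 2 were lower in AD dogs and 1 was higher, where the shares over all probes were 4.46% and 1.65%. Over the 16 partner probes the median AD minus healthy was -0.02, with 9 below 0, and over all tested probes the median was -0.01.

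**Figure D2:**
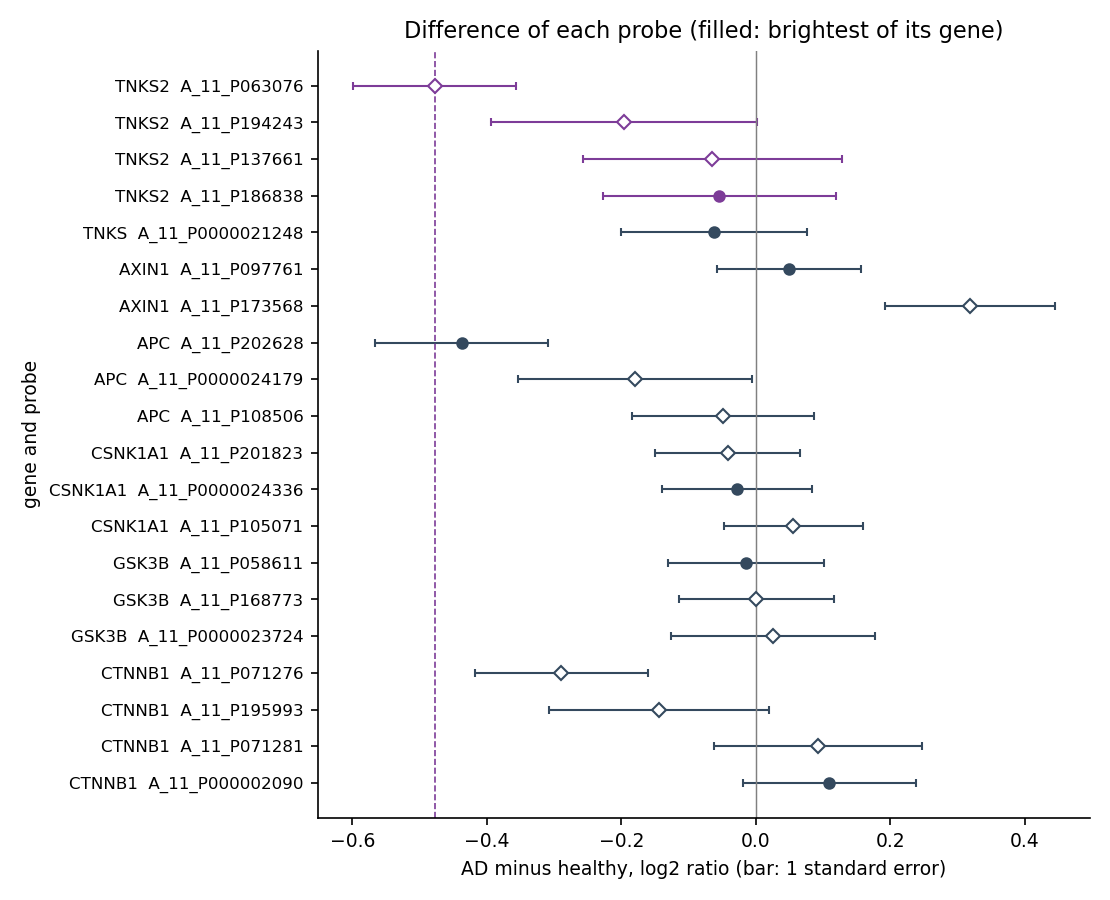
AD minus healthy (horizontal axis, log2 ratio) is shown for each of the 20 probes with a bar of 1 standard error, TNKS2 in purple and the partners in dark blue; a filled circle is the brightest probe of its gene and the dashed line marks TNKS2 A_11_P063076. The APC probe A_11_P202628 at -0.44 lies nearest to the dashed line, while the probes of GSK3B, CSNK1A1 and TNKS lie between -0.06 and 0.06.

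TNKS, the other tankyrase, had 1 probe, A_11_P0000021248, which spans an intron on chromosome 16 (chr16:34851412-34858934). AD dogs had a log2 ratio of -0.09 ± 0.31 (SD, n = 20), from -0.73 through a median of -0.14 to 0.51. In healthy dogs it was -0.03 ± 0.33 (SD, n = 8), from -0.77 through 0.03 to 0.28. The groups overlapped, with 18 of 20 AD dogs within the healthy range. The difference was -0.06 (standard error 0.138, limma adjusted p = 0.947), with a 95% interval from -0.34 to 0.22.

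Among the scaffolds, AXIN1 had 2 probes on chromosome 6, each spanning an intron. They are shown because they differed from each other, by their first 30 bases.
AXIN1 A_11_P097761: tgctgaccaagaagggcaactacagatact
AXIN1 A_11_P173568: acattcctcgcacttaccgaatgccaaagg
The brighter, A_11_P097761 (chr6:40217166-40217655), had an AD minus healthy of 0.05 (standard error 0.107, limma adjusted p = 0.946), and 19 of 20 AD dogs were within the healthy range. Probe A_11_P173568 (chr6:40197955-40205766) was higher in AD dogs at the unadjusted level. AD dogs had a log2 ratio of 0.36 ± 0.31 (SD, n = 20), from -0.14 through 0.35 to 0.85. In healthy dogs it was 0.04 ± 0.22 (SD, n = 8), from -0.35 through -0.00 to 0.30. AD minus healthy was 0.32 (standard error 0.126, limma unadjusted p = 0.0175, adjusted p = 0.604), with 16 of 20 AD dogs over the healthy mean and 12 above the highest healthy dog. After normexp and loess the difference was 0.11. Within the AD dogs the r between the AXIN1 probes was 0.208.

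APC, the large tumor suppressor that holds beta-catenin in the complex, had 3 probes on chromosome 3, all read in the descending direction. They are printed whole, since the brightest gave the partner value nearest to TNKS2 and the others did not.
APC A_11_P202628: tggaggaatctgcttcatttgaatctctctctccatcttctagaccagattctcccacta
APC A_11_P108506: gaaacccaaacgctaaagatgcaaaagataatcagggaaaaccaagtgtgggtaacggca
APC A_11_P0000024179: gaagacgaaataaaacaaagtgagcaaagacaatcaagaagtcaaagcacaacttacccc
The log2 ratio of the brightest, A_11_P202628 (chr3:254187-254246), was -0.20 ± 0.31 (SD, n = 20) in AD dogs, with a lowest value of -0.85, a median of -0.09 and a highest of 0.22. In healthy dogs it was 0.24 ± 0.24 (SD, n = 8), with a lowest value of -0.23, a median of 0.21 and a highest of 0.58. Each of the 20 AD dogs lay under the healthy mean, 6 were below the lowest healthy dog and 14 were within the healthy range. The difference was -0.44 (standard error 0.128), with an unadjusted p of 0.00184 and an adjusted p of 0.490 from limma. The median signal of the dogs' RNA was 15000 in the AD group and 20200 in the healthy group, and that of the common reference was 17700 and 18000.

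The other APC probes had smaller values of AD minus healthy. It was -0.05 (standard error 0.135, limma adjusted p = 0.959) for A_11_P108506 (chr3:253485-253544). It was -0.18 (standard error 0.174, limma adjusted p = 0.876) for A_11_P0000024179 (chr3:258388-258447). Both signs depended on the low-signal arrays of scan day 5. Without that day the difference was 0.09 for A_11_P108506 and 0.03 for A_11_P0000024179. The range over the APC probes was 0.388 log2 units, and 12.7% of the 1021 genes with 3 tested probes had a range at least as wide. The mean of the 3 probes had an AD minus healthy of -0.22 (limma adjusted p = 0.797). Over the AD dogs the r of these dimmer probes with each other was 0.831, while A_11_P202628 had an r of -0.184 with A_11_P108506 and of -0.39 with A_11_P0000024179. The signal of A_11_P202628 thus did not run with that of the other APC probes from dog to dog. Those were far dimmer, with median dog signals of 224 (AD) and 272 (healthy) for A_11_P108506. For A_11_P0000024179 they were 184 and 227, against 15000 and 20200 for A_11_P202628. The dim probes were well above background on 27 and 25 of 28 arrays. How far low signal bears on these correlations was not tested.

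The kinases of the complex showed no difference past the test and little disagreement between probes. The 3 GSK3B probes, all on chromosome 33, had an AD minus healthy of -0.01, 0.00 and 0.03, with standard errors from 0.115 to 0.152 and limma adjusted p-values of at least 0.984. A pair of them, A_11_P058611 and A_11_P168773, overlap by 46 bases and are not separate measurements. The third, A_11_P0000023724, lies apart (chr33:23542938-23542997). On each of the 3, 19 of 20 AD dogs were within the healthy range. The range over these probes was 0.040 log2 units, and 94.1% of genes with as many probes had at least that. The overlapping pair is counted there as separate probes, so this share may not be a like comparison.

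The 3 CSNK1A1 probes, on chromosome 4, had an AD minus healthy of -0.03 for the brightest (A_11_P0000024336), -0.04 (A_11_P201823) and 0.06 (A_11_P105071). Their standard errors were 0.103 to 0.112, and the limma adjusted p-values were 0.933 to 0.974. The 95% interval for the brightest ran from -0.26 to 0.20. Between 15 and 17 of the 20 AD dogs were within the healthy range on these probes, and 77.7% of genes with as many probes disagreed by at least as much.

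Beta-catenin itself, the substrate of the complex, had 4 probes on chromosome 23, which fell on both sides of 0. The brightest, A_11_P000002090 (chr23:10572840-10572899), and A_11_P071276 (chr23:10569187-10570572), which spans an intron, are shown because they differed most.
CTNNB1 A_11_P000002090: tatcccaaagttgttgtaacctgctgtgat
CTNNB1 A_11_P071276: tctctcttcagaacggagccaatggcttgg
On A_11_P000002090 the AD dogs had a log2 ratio of -0.04 ± 0.31 (SD, n = 20), from -0.67 to 0.69, and the healthy dogs one of -0.14 ± 0.24 (SD, n = 8), from -0.54 to 0.17. The difference was 0.11 (standard error 0.128, limma adjusted p = 0.889). Without slide 2 it was 0.29 and without slide 3 it was -0.07, so its sign changed with the healthy dogs included.
On A_11_P071276 the AD dogs had a log2 ratio of -0.31 ± 0.30 (SD, n = 20), from -0.78 through -0.28 to 0.35. In healthy dogs it was -0.02 ± 0.26 (SD, n = 8), from -0.40 through -0.07 to 0.55. AD minus healthy was -0.29 (standard error 0.128, limma unadjusted p = 0.0314, adjusted p = 0.725), with 18 of 20 AD dogs under the healthy mean.

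The remaining CTNNB1 probes had an AD minus healthy of 0.09 (A_11_P071281) and -0.14 (A_11_P195993), with adjusted p-values of 0.925 and 0.887 from limma. The range over the 4 probes was 0.398 log2 units, and 16.7% of the 324 genes with 4 probes had a range at least as wide. Over the AD dogs, A_11_P000002090 had an r of 0.628 with A_11_P071281, which lies near it on the chromosome, and of -0.176 with A_11_P071276. Over all 22 probe pairs within the 7 genes the median r in AD dogs was 0.363.

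The channels were also read alone, quantile normalized between arrays, because the reference RNA is the same on every array and cannot differ between dogs. The common reference differed between AD and healthy arrays on 6 of 16 partner probes (37.5%) at limma's adjusted p of 0.085, where 39.1% of all probes did. The reference signal was higher on AD arrays by 0.35 log2 units for GSK3B A_11_P0000023724 (adjusted p = 0.000413), by 0.54 for CTNNB1 A_11_P195993 (adjusted p = 0.00724) and by 0.47 for TNKS (adjusted p = 0.0111). It was lower on AD arrays for 3 probes, with a difference of -0.42 for APC A_11_P108506 (adjusted p = 0.0133), -0.34 for APC A_11_P0000024179 (adjusted p = 0.045) and -0.19 for AXIN1 A_11_P173568 (adjusted p = 0.0504). These are limma values for arrays, not for dogs.

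For most of these probes the dog's channel moved with the reference. In the dog's channel alone AD minus healthy was 0.43 for TNKS, 0.34 for CTNNB1 A_11_P195993, 0.36 for GSK3B A_11_P0000023724, -0.40 for APC A_11_P108506 and -0.33 for APC A_11_P0000024179. The signs for TNKS and CTNNB1 A_11_P195993 were thus opposite to those of the ratio. AXIN1 A_11_P173568 was at 0.11 in the dog's channel and at -0.19 in the reference, so its ratio of 0.32 drew on both channels. TNKS2 A_11_P063076 and APC A_11_P202628 had nearly the whole of their ratio in the dog's channel. For TNKS2 A_11_P063076 the dog's channel gave -0.51 (standard error 0.123) and the reference -0.04 (standard error 0.054). For APC A_11_P202628 the dog's channel gave -0.53 (standard error 0.153) and the reference -0.05 (standard error 0.123). For TNKS2 A_11_P194243 the dog's channel gave 0.50 and the reference 0.75, so its sign too depended on the use of the reference.

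**Figure D3:**
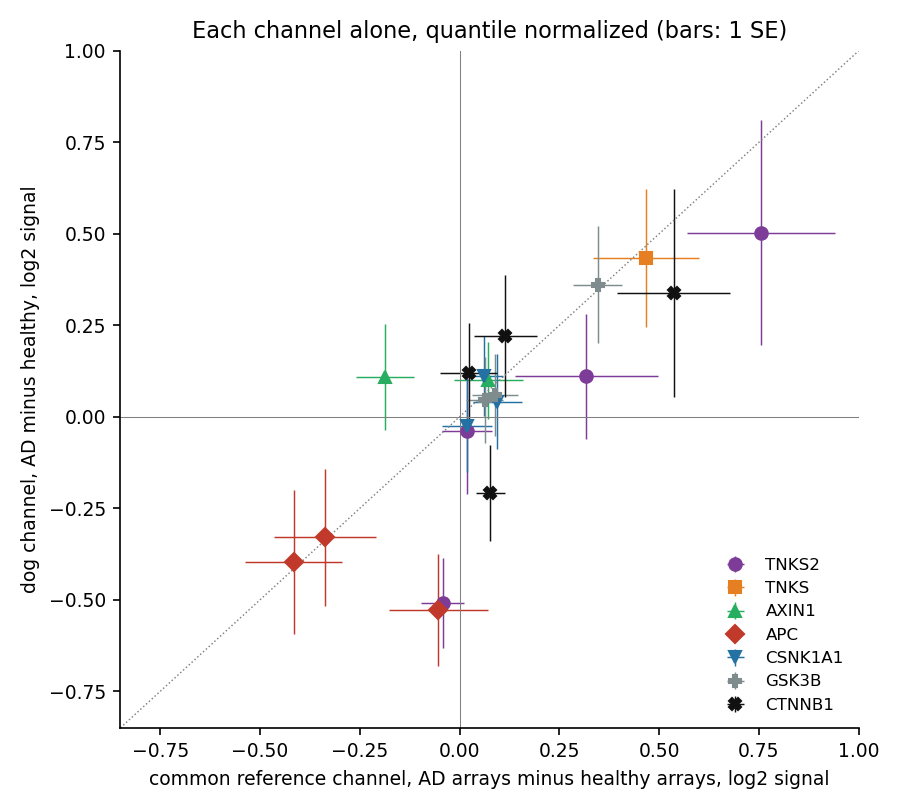
Each point is 1 of the 20 probes, with the difference between AD and healthy arrays in the common reference channel (horizontal axis) and between AD and healthy dogs in the dog's channel (vertical axis), both in log2 signal after quantile normalization, with bars of 1 standard error; the dotted line marks equal differences. Most probes lie along the dotted line, and TNKS2 A_11_P063076 and APC A_11_P202628 lie together below it, near -0.5 in the dog's channel and near 0 in the reference.

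The call for the partners depended on this choice and on array weights. With the dog's channel alone, APC A_11_P202628 passed the threshold (limma adjusted p = 0.0565), as did 1251 probes in all. With array weights, APC A_11_P202628 (adjusted p = 0.055) and AXIN1 A_11_P173568 (adjusted p = 0.0722) passed, as did 849 probes in all. Over the alternatives the adjusted p of APC A_11_P202628 ran from 0.055 to 0.996. Without slide 2, and likewise without slide 3, 1 of the 16 partner probes had an unadjusted p under 0.05.

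Slides were compared within the AD dogs with limma's moderated F test. None of the 20 probes passed an adjusted p of 0.085, where 5.28% of all probes did. The smallest adjusted p was 0.285, for APC A_11_P0000024179, the 1 probe of the 20 with an unadjusted p under 0.05 (0.0431). For TNKS2 A_11_P063076 the adjusted p was 0.806.

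Whether the partners ran with TNKS2 from dog to dog was examined within each group, with the brightest probe of each partner against the probes A_11_P063076 and A_11_P186838. In AD dogs 3 of 12 pairs had an adjusted p of at most 0.05, and in healthy dogs 0 of 12. With 20 AD dogs and 8 healthy dogs these counts cannot be compared between the groups. For the 3 pairs, 3.26% to 13.6% of all tested probes had a higher r with the same TNKS2 probe in AD dogs. At an unadjusted p under 0.05, 2 of the 12 pairs in healthy dogs were found. In AD dogs, A_11_P063076 with AXIN1 and A_11_P186838 with GSK3B were found at that level beside the 3 pairs.

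TNKS2 A_11_P063076 and APC A_11_P202628, which were both lower in AD dogs than in healthy dogs on average, were also related among the AD dogs. Pearson's r was 0.623 (permutation test, two-sided, p = 0.00351, adjusted p = 0.032) and rho 0.663 (permutation test, p = 0.00207, adjusted p = 0.0248), over 20 dogs. With slide means removed r was 0.661. The call was lost without the 2 farthest dogs (r = 0.516, permutation adjusted p = 0.145) and without scan day 5 (r = 0.604, permutation adjusted p = 0.075). The value also depended on the processing, with r = 0.111 after normexp background correction and loess and r = 0.394 with the dog's channel alone. Of all tested probes, 7.08% had a higher r with A_11_P063076 in AD dogs, and the median r was 0.013. Among healthy dogs it was -0.432 (exact permutation test, two-sided, p = 0.274, adjusted p = 0.469) and rho -0.238 (exact permutation test, p = 0.582, adjusted p = 0.699).

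The brightest TNKS2 probe, A_11_P186838, ran with the brightest CTNNB1 probe. In AD dogs r was 0.842 (permutation test, two-sided, p = 1e-05, the smallest that the permutations can give, adjusted p = 0.00036) and rho 0.776 (permutation test, p = 0.00012, adjusted p = 0.00432). This r was 0.756 without the 2 farthest dogs, 0.733 with slide means removed, 0.748 without scan day 5, 0.705 after normexp and loess, and 0.805 with the dog's channel alone, each with an adjusted p of at most 0.05. Among healthy dogs it was 0.488 (exact permutation test, two-sided, p = 0.219, adjusted p = 0.394) and rho 0.476 (exact permutation test, p = 0.243, adjusted p = 0.461). Of all tested probes, 3.26% had a higher r with A_11_P186838 in AD dogs. A_11_P063076 had an r of 0.433 with this CTNNB1 probe in AD dogs (permutation adjusted p = 0.159). A_11_P186838 had an r of 0.308 with APC A_11_P202628 (permutation adjusted p = 0.354). Whether the TNKS2 probes differ in these correlations was not tested.

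The same TNKS2 probe ran with the brightest CSNK1A1 probe, with r = 0.634 (permutation test, two-sided, p = 0.00258, adjusted p = 0.032) and rho = 0.71 (permutation test, p = 0.00071, adjusted p = 0.0128) in AD dogs. With slide means removed r was 0.781. The call was lost without the 2 farthest dogs (r = 0.549, permutation adjusted p = 0.135), without scan day 5 (r = 0.671, permutation adjusted p = 0.075) and after normexp and loess (r = 0.544, permutation adjusted p = 0.0791). Among healthy dogs it was 0.799 (exact permutation test, two-sided, p = 0.0242, adjusted p = 0.0879) and rho 0.786 (exact permutation test, p = 0.0279, adjusted p = 0.0949). The probes of a pair share the array, the RNA and the common reference of each dog. Of all probes, 13.6% had a higher r with A_11_P186838 than CSNK1A1 did in AD dogs.

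Other pairs did not pass in these log2 ratios. For A_11_P063076 with the brightest AXIN1 probe r was -0.488 in AD dogs (permutation test, two-sided, p = 0.0293, adjusted p = 0.0879; rho = -0.432, adjusted p = 0.16), and it was -0.236 without the 2 farthest dogs. After normexp and loess it was -0.615, which passed (permutation adjusted p = 0.0462). For A_11_P186838 with the brightest GSK3B probe r was -0.522 (permutation test, two-sided, p = 0.0183, adjusted p = 0.0879; rho = -0.577, adjusted p = 0.0643), and it was -0.338 without the 2 farthest dogs. TNKS had an r of 0.398 with A_11_P063076 (permutation test, two-sided, p = 0.0831, adjusted p = 0.187; rho = 0.417, adjusted p = 0.167) and of 0.15 with A_11_P186838 (permutation test, two-sided, p = 0.527, adjusted p = 0.612; rho = 0.185, adjusted p = 0.62).

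**Figure D4:**
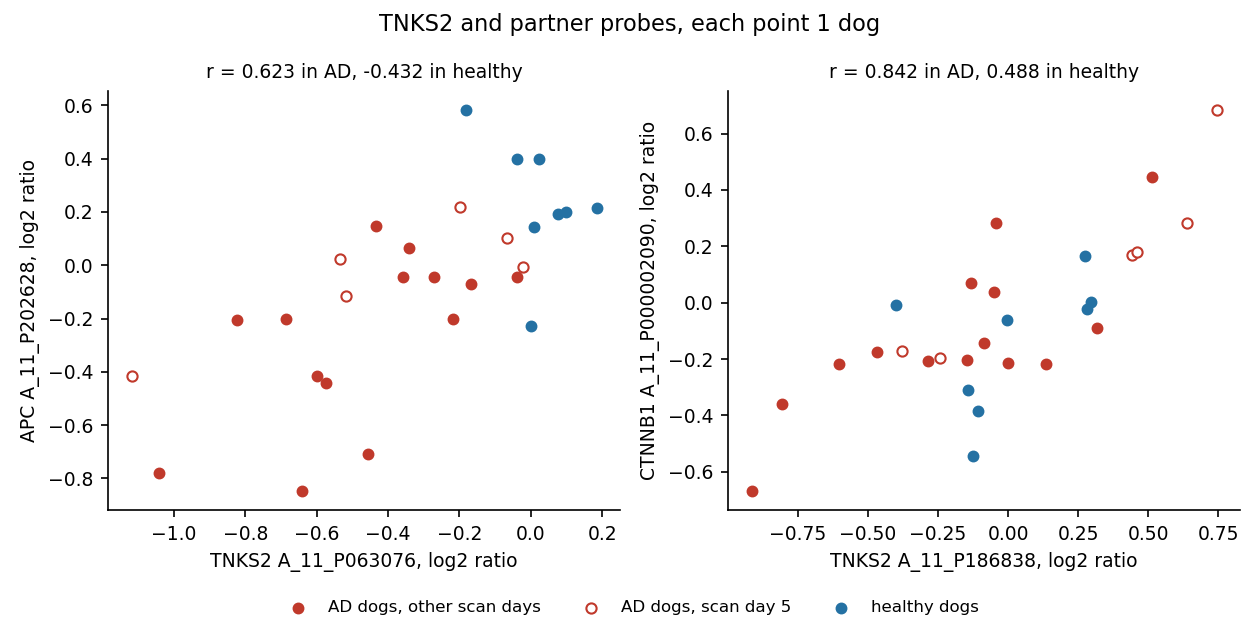
Each point is 1 dog, with the log2 ratio of a TNKS2 probe on the horizontal axis and that of a partner probe on the vertical axis, A_11_P063076 with APC on the left and A_11_P186838 with CTNNB1 on the right; AD dogs are red (open circles for scan day 5) and healthy dogs blue. In AD dogs r was 0.623 on the left and 0.842 on the right, and in healthy dogs it was -0.432 and 0.488.

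The wider pathway was read from 8 lists of 135 genes other than the members, of which 87 were tested, each by its brightest probe. None had an adjusted p of at most 0.085 from limma. Over the brightest probes of all 22165 genes, 1153 were lower in AD dogs at an unadjusted p under 0.05 and 372 were higher. Over all probes 6.12% were found. Among the 87 genes, 3 were lower in AD dogs at this level and 1 was higher, together 4.6%. These were EPHB3, a receptor listed as a Wnt target (-0.49, standard error 0.141, limma adjusted p = 0.490), and the Wnt inhibitor SFRP5 (-0.33, standard error 0.109, limma adjusted p = 0.490). The receptor FZD2 was at -0.69 (standard error 0.289, limma adjusted p = 0.651) and the DKK family member DKK3 at 0.42 (standard error 0.185, limma adjusted p = 0.719). These 4 were named after their values were seen. The median AD minus healthy of the 87 genes was 0.03, with 36 of them (41.4%) below 0, beside a median of -0.01 and 52.7% below 0 over the brightest probes of all genes.

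Among the proteins that tankyrases bind or that handle their ADP-ribose chains, 18 genes were tested and 0 had an unadjusted p under 0.05. Over all probes 6.12% had, so few would be found in a list this short. The counts here and for the lists below are therefore not read as results about the lists. RNF146, the ubiquitin ligase that reads the chains, had an AD minus healthy of 0.04 (standard error 0.167), which became -0.50 with the dog's channel alone (limma adjusted p = 0.239). The deubiquitinase USP34, which acts on axin, was also at 0.04 (standard error 0.130), and the telomere protein TERF1, after which tankyrases were named, was at -0.02 (standard error 0.126). The adapter protein SH3BP2 was at 0.15 (standard error 0.105) and PARP1, another ADP-ribose polymerase, at -0.13 (standard error 0.179). As log2 ratios none of these passed the test, with limma adjusted p-values from 0.866 to 0.986.

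Of 15 further genes of the destruction complex, 0 had an unadjusted p under 0.05. AMER1, which brings the complex to the membrane, was at -0.23 (standard error 0.130, limma adjusted p = 0.856). Its value in the dog's channel alone was -0.72, which passed the threshold (limma adjusted p = 0.058). The related kinases GSK3A, CSNK1D and CSNK1E were at 0.08, 0.03 and 0.06, and BTRC, which recognizes phosphorylated beta-catenin, was at -0.13 (standard error 0.223), which became 0.91 with the dog's channel alone (limma adjusted p = 0.0913). On the side of the receptors, 14 genes were tested and FZD2 alone had an unadjusted p under 0.05. The co-receptor LRP6 was at -0.02 (standard error 0.102). The signal relay DVL1 and the T-cell factor TCF7 had no probe by name.

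Among 9 nuclear partners of beta-catenin, 0 had an unadjusted p under 0.05. LEF1 was at 0.14 (standard error 0.263) and went from -0.25 without slide 3 to 0.52 without slide 2, and TCF7L2 was at 0.04 (standard error 0.290). Of 14 Wnt target genes, EPHB3 alone had an unadjusted p under 0.05, while MYC was at 0.05 (standard error 0.168) and CCND1 at 0.10 (standard error 0.189). The 8 ligands and genes for their secretion and the 4 adhesion partners of beta-catenin had none, and of the 10 inhibitors SFRP5 and DKK3 had.

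Marker genes of blood cells were read beside these results. Of the markers tested, all 7 of T cells, 6 of B cells, 6 of neutrophils, 5 of monocytes, 3 of NK and cytotoxic cells, 5 of red cells and 4 of platelets had an unadjusted p above 0.05 from limma. The mean log2 ratio of the T cell markers ran from -0.54 to 0.72 in AD dogs and from -0.42 to 0.30 in healthy dogs. For neutrophil markers the ranges were -0.37 to 0.98 and -0.31 to 0.35, with 6 of 6 genes higher in AD dogs on average (median 0.18). For B cells they were -1.03 to 0.46 and -0.48 to 0.20, and for monocytes -0.77 to 0.50 and -0.43 to 0.52. For NK and cytotoxic cells they were -1.32 to 0.98 and -1.13 to 1.37, for red cells -1.50 to 1.24 and -1.57 to 1.01, and for platelets -1.07 to 0.68 and -0.84 to 0.77. On average 5 of 5 red cell genes were higher in AD dogs (median 0.25), while 4 of 4 platelet genes (median -0.30) and 3 of 3 genes of NK and cytotoxic cells (median -0.24) were lower, and none of them passed the test. Red cell markers passed the filter on signal although the methods name nuclear cells. The study itself counted lymphocytes by flow cytometry. It reported smaller shares of T cells and B cells in AD dogs, with larger shares of cytotoxic and regulatory T cells. Those counts were not analysed here, and markers that did not pass do not show equal cell shares. The part of these cell types in the differences of TNKS2 and APC was not tested.

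The probes with a pattern most like that of TNKS2 over the 20 AD dogs were taken by Pearson's r after slide means were removed, among 17130 tested probes with a gene symbol. For A_11_P063076 they were both probes of VPS33B, a protein of membrane trafficking (r = 0.92 and 0.888), GUF1, a mitochondrial translation factor (r = 0.893), HYKK (r = 0.886) and METTL21A (r = 0.883). For A_11_P186838 they were DENR, a factor of translation initiation and recycling (r = 0.978), PHF5A, a splicing factor (r = 0.973), PPWD1 (r = 0.954), the kinesin KIF5B (r = 0.954) and VPS54 (r = 0.953). The probes share arrays and reference, and the median r over all these probes was 0.009 and 0.019. The lists for the 2 TNKS2 probes held no gene in common.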

How the data were processed

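The members of the gene set and the pathway and marker lists were chosen with earlier results of these data known. Per the labels, the authors' signals were extracted with Agilent Feature Extraction 10.7.3.1, while the file headers name 10.10.1.1. The deposited scanner files hold intensity values on a linear scale, which the authors' software had background-subtracted and dye-normalized. The deposited table of log10 ratio values, made by the authors from the same arrays, was used only as an alternative.

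Control spots were left out (43803 spots, 43603 probes), spots of a probe were averaged, and spots with an outlier mark (0.0249%) were set to missing. The log2 ratio of Cy5 over Cy3 was centered on the array median. A probe was tested if it was well above background in some channel on some array and any of the 4 medians (both channels and groups) exceeded 100, which left 30202. Analysis used R 4.3.3, limma 3.58.1 (lmFit, eBayes, Benjamini-Hochberg adjustment, threshold 0.085, the level the study used), the data.table package (1.17.8) and matplotlib 3.10.9. A correlation was tested by 100000 permutations where n was 20 and exactly where n was 8, over a family of 36. A gene of the lists was represented by its brightest probe. All member probes, 17 pathway genes fixed by name, and the 5 probes most like each of 2 TNKS2 probes were named by rule. The methods state the dyes, so the direction of the ratio was kept, although the lowest r between any 2 arrays was -0.397. Methods were tested on simulated data. Alternatives varied the filter, outlier marks, background correction, centering, reference, source of values, slide, scan day, dog number, array weights, variance model and arrays. Depth has no counterpart on arrays, and signal over background limits the values. Positions are those in the files (canFam3). Lymphocyte counts, cytokines and PCR of the study were not analysed here.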

Additional observations from a re-analysis of the deposited data

Results flagged for a closer look

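On 2 of the 20 probes examined, 1 healthy dog lay far from the other 7, by the gap to the nearest dog over the range of the group. Chance alone does this in about 1 in 20 groups. On the TNKS probe A_11_P0000021248, healthy dog 5 had a log2 ratio of -0.773 and the nearest healthy dog -0.175. On the CTNNB1 probe A_11_P071276, healthy dog 2 had a log2 ratio of 0.552 and the nearest healthy dog 0.004.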

How the results depend on the processing

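TNKS2 A_11_P063076 had an AD minus healthy below 0 under all 23 alternatives, from -0.52 to -0.26 (normexp and loess), and A_11_P186838 one from -0.36 to 0.05. The alternatives reuse the arrays by which A_11_P063076 chose the gene, so its constant sign is no separate support. The number of probes called in all, 0 here, became 3 with no filter on signal, 1 with the dog's channel well above background on at least 8 arrays, 1251 with the dog's channel alone and 849 with array weights. For the partner probes it became 1 and 2 under the last pair, and the TNKS2 probes were left out of this count. The range between TNKS2 probes was 1.011 with the dog's channel alone. For the reference channel, centering in place of quantile normalization gave 19078 probes and 13 partner probes, and slide as a random block 2906 and 2. Without scan day 5, slides within AD dogs gave 0 probes. The causes were not tested.

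Of the 2 pairs of TNKS2 probes past 0.05 in AD dogs, neither passed with the dog's channel alone, where 1 other pair did (A_11_P186838 with A_11_P137661), and 1 was left with slide means removed, 0 without scan day 5 and 0 without the 2 farthest dogs; of the 3 pairs with partners, 1 was left without scan day 5 and 1 without the 2 farthest dogs. In healthy dogs normexp gave 1 pair of TNKS2 probes. Correlations changed sign as follows, for A_11_P063076 unless another probe is named. In healthy dogs, normexp gave -0.267 with A_11_P186838, -0.216 with A_11_P194243, 0.528 with A_11_P137661 and, for A_11_P186838 with A_11_P137661, 0.042. With the dog's channel alone, A_11_P137661 in healthy dogs was at 0.117, at 0.451 with A_11_P186838 and at 0.276 with A_11_P194243, and in AD dogs TNKS was at -0.014 and APC with A_11_P186838 at -0.185. Without scan day 5, A_11_P137661 was at -0.008 and GSK3B at 0.315 in AD dogs. Without the 2 farthest healthy dogs, A_11_P186838 was at -0.023, A_11_P194243 at -0.179, GSK3B at -0.386, CSNK1A1 at -0.023 and A_11_P186838 with A_11_P137661 at 0.226.

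With dog number as a replicate block, over the 8 numbers that both groups share, AD minus healthy was -0.52 for A_11_P063076 and -0.36 for A_11_P186838, and 1 partner probe had an unadjusted p under 0.05. The numbers do not pair the dogs: deviations of same-numbered dogs had an r from -0.359 to 0.425, above 0.1 in 4 of 8 pairs.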
